A study of Mus musculus with 6 samples.

Results

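Immediate early and activity-induced genes are a set of 35 genes, 18 transcription factors, 13 effectors and 4 MAP kinase phosphatases, whose transcription is switched on in neurons and other cells within minutes to hours of a stimulus. They were taken by gene symbol from a table of 33274 gene rows, each symbol had a single row, and all 35 were among the 18327 genes tested. RNA was measured by poly(A) RNA-seq in the cerebral cortex of 6 wild type female mice of the outbred ICR stock at 6 weeks of age. In the methylphenidate lineage (3 libraries) the grandsire, a male 6 weeks old at the start, had been injected under the skin for 21 days with 15 mg/kg methylphenidate, a stimulant that slows the reuptake of dopamine and noradrenaline. In the saline lineage (3 libraries) the grandsire had received saline at 10 mL/kg over the same time. In both lineages the grandsires and then 1 F1 son of each litter were mated with females that were given no drug, so the animals measured here were never dosed. The labels name neither the litter nor the grandsire of an animal, nor how long before collection an animal was last handled.

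In resting cells these genes are held ready for transcription, and calcium entry, cyclic AMP and the MAP kinase ERK activate bound factors such as CREB, SRF and its ternary complex partners, and MEF2. The first products are transcription factors of the FOS, JUN, EGR and NR4A families, together with direct effectors of synapses such as Arc. Phosphatases of the DUSP family are induced by the same signals and switch MAP kinases off. In the cortex, Fos, Arc, Egr1 and Npas4 are widely used as marks of recent neuronal activity, while Klf2, Klf4 and Ccn1 are also known as early genes of blood vessel cells.

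The promoter windows of 7 members are shown, because these genes varied together between animals (Fos, Egr2, Nr4a1), varied against them (Rgs2), had the highest log2 fold change (Btg2), or had opposite signs among the phosphatases (Dusp1, Dusp5). Each window runs from 250 bases before to 50 bases after the start of the gene, 5′ to 3′ on the gene's own strand, from RefSeq on GRCm38.p6, which is not the build of the counts. Egr2 has 5 windows in that table, and the most downstream is shown. Capitals mark matches on either strand to 6 motifs: the CArG box bound by SRF, the cyclic AMP response element TGACGTCA, the AP-1 site TGANTCA, the EGR site GCGNGGGCG, the MEF2 site and the TATA box TATAAA.
Fos, GRCm38.p6 chr12:85473640-85473939, plus strand: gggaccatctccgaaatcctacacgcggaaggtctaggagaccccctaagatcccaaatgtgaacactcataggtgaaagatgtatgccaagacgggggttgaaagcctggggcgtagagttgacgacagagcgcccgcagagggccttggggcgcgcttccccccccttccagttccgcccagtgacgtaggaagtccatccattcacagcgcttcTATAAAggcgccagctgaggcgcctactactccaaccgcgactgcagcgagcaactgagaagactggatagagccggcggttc
Egr2, GRCm38.p6 chr10:67537680-67537979, plus strand: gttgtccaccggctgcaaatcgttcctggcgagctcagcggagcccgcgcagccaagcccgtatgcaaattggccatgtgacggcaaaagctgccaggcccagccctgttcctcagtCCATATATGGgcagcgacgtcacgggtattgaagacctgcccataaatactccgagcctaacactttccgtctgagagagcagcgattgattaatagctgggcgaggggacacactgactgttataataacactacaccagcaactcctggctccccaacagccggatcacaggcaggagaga
Nr4a1, GRCm38.p6 chr15:101266596-101266895, plus strand: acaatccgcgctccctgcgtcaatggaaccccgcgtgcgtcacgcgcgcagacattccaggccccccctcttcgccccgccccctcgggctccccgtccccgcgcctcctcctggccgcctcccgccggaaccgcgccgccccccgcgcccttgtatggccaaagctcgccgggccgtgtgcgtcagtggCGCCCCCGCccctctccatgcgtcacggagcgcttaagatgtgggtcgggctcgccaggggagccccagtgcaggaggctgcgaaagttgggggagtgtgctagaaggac
Btg2, GRCm38.p6 chr1:134079106-134079405, minus strand: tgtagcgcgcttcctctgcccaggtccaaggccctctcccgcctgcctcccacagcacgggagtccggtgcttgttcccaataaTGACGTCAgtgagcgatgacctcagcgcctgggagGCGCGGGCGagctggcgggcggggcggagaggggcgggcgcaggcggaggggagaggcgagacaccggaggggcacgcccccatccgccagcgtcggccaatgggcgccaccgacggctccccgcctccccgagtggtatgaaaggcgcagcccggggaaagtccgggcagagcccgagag
Dusp1, GRCm38.p6 chr17:26508423-26508722, minus strand: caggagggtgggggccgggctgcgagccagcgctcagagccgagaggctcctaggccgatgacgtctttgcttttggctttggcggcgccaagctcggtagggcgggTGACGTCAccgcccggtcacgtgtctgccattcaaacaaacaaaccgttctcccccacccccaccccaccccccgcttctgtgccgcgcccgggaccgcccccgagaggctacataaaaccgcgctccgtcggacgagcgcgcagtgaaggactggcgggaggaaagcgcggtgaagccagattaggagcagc
Dusp5, GRCm38.p6 chr19:53528895-53529194, plus strand: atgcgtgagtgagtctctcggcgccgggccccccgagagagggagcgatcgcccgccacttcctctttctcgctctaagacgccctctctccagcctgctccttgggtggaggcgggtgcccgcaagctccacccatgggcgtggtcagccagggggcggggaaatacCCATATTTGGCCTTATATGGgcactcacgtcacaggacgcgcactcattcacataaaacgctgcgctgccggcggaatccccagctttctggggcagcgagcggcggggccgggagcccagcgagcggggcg
Rgs2, GRCm38.p6 chr1:144004100-144004399, minus strand: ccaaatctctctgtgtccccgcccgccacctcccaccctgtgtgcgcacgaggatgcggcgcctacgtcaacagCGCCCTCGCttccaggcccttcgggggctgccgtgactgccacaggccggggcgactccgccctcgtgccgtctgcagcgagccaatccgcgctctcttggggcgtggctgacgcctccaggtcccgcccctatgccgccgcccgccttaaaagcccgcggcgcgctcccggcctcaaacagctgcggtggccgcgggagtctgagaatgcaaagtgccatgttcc

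In these windows Dusp5 had 2 CArG boxes side by side, at 82 to 73 and 72 to 63 bases before the start, and Egr2 had 1. Btg2 held a cyclic AMP response element and an EGR site, Dusp1 held a cyclic AMP response element, Nr4a1 and Rgs2 each held an EGR site on the reverse strand, and Fos held a TATA box. Of the 35 members, 28 matched the RefSeq table by symbol. The EGR site was found in 10 of these 28, or 35.7%, against 6.27% of all 27025 genes with a window, and the CArG box in 2, or 7.14%, against 1.81%. The cyclic AMP response element was found in 3, or 10.7%, against 2.03%, the MEF2 site in 2, or 7.14%, against 0.636%, the TATA box in 6, or 21.4%, against 15.7%, and the AP-1 site in 1, or 3.57%, against 8.97%. The median GC content was 63.8% over the windows of the members and 52.7% over all windows, and the EGR site is itself rich in G and C; the part of GC content in these shares was not tested. A match describes letters in the window and not a bound site.

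Library totals lay between 23896752 and 28120640 counts, and the smallest count of a member in any library was 20, for Maff. Expression is given as CPM, counts scaled to the size of the library, which are not divided by gene length, so levels of different genes are not compared. The excitatory neuron markers fixed for cortex were all measured in every library, and their summed level was 4994 to 5575 CPM in the methylphenidate lineage and 5138 to 5417 CPM in the saline lineage. Markers of striatal projection neurons, a cell type of the tissue below the cortex, summed to 351.5 to 841.9 CPM in the methylphenidate lineage and 255.8 to 357.2 CPM in the saline lineage. In tissue RNA, fewer cells of a type and less RNA per cell cannot be told apart.

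For most of the 35 genes, expression varied more between animals of the same lineage than between the lineage means. The log2 fold change was larger than the within-lineage SD of log2 CPM in Egr1, Klf4, Csrnp1, Ier5, Dusp4, Dusp5 and Dusp6, which were lower in the methylphenidate lineage, and in Rgs2 and Btg2, which were higher in it. Across both lineages the same 3 animals tended to be high: 29 of the 35 genes had their highest CPM in methylphenidate replicate 2 (10 genes), saline replicate 1 (11) or saline replicate 3 (8). The lowest CPM fell in methylphenidate replicate 1 (11 genes), methylphenidate replicate 3 (10) or saline replicate 2 (6) for 27 of the 35. These libraries were picked from the same values, and the share over all genes was not counted, so both counts are descriptions. The mean of the 35 genes on the log2 scale, each centred on its own mean over the 6 libraries, was -0.20, 0.14 and -0.19 for the methylphenidate lineage (replicates 1, 2 and 3) and 0.22, -0.14 and 0.17 for the saline lineage (replicates 1, 2 and 3). Each lineage therefore held libraries above and below the mean.

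**Figure D1:**
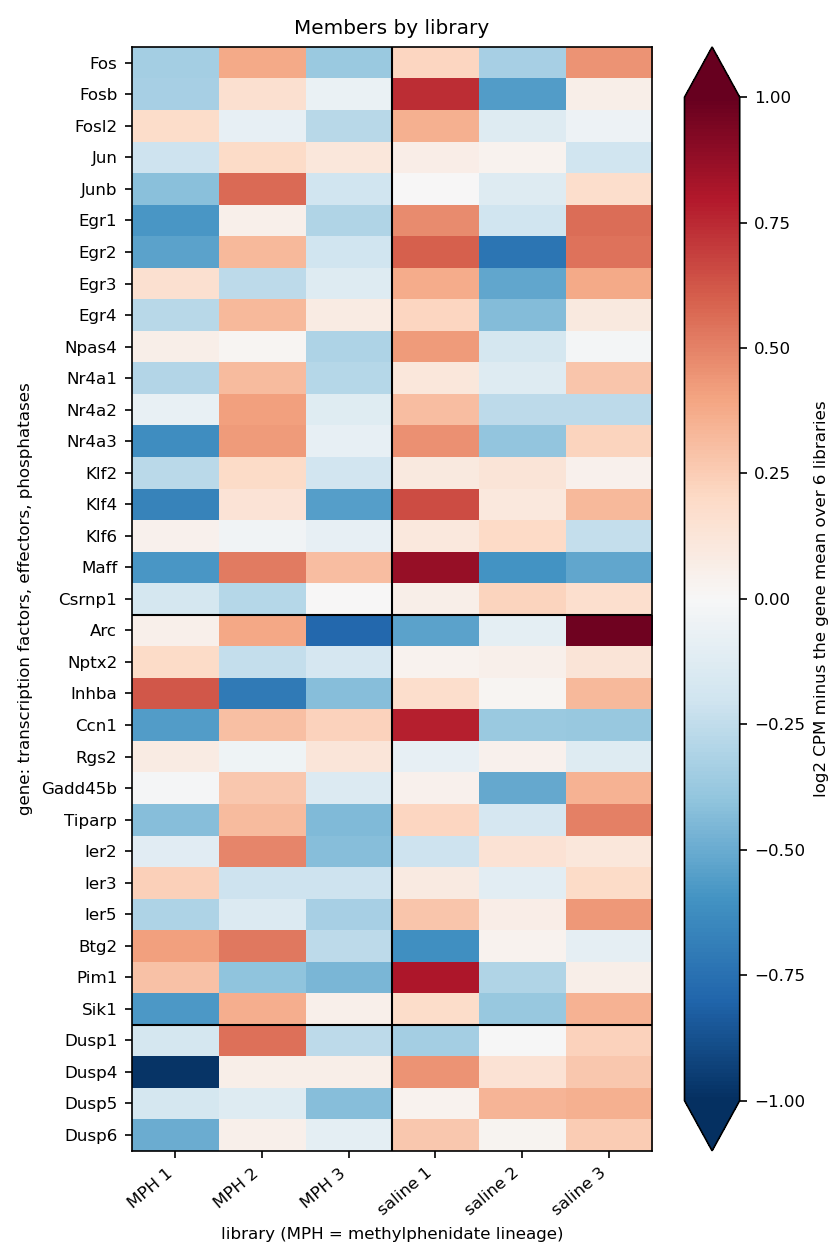
Log2 CPM of each of the 35 genes minus its mean over the 6 libraries, with genes in rows by role and libraries in columns (red higher, blue lower, colours saturating at 1). Methylphenidate replicate 2 and saline replicates 1 and 3, picked from these values, hold the highest value of 29 of the 35 genes.

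The AP-1 genes did not separate the lineages. Fos, the best known activity mark and a subunit of AP-1, had 30.6, 50.2 and 29.9 CPM in methylphenidate replicates 1, 2 and 3, against 44.7, 30.6 and 52.9 CPM in saline replicates 1, 2 and 3. The lineages overlapped, with 1 high library in the methylphenidate lineage and 2 in the saline lineage. Methylphenidate replicates 1 and 3 (30.56 and 29.89 CPM) lay just below the lowest saline library (30.62 CPM), and replicate 2 lay within the saline range. The log2 fold change (methylphenidate over saline) was -0.21 (SE 0.23; edgeR adjusted p = 0.885). Fosb, whose stable splice product builds up with repeated stimulation, had 12.4, 17.5 and 14.9 CPM in the methylphenidate lineage against 26.2, 10.6 and 16.3 CPM in the saline lineage, where saline replicate 1 and replicate 2 were the highest and the lowest of all 6. Junb, an alternative JUN partner of FOS, had 59.9, 118.3 and 69.6 CPM in the methylphenidate lineage against 80.4, 73.3 and 90.4 CPM in the saline lineage. Prdx2, on the other strand, shares exon bases with Junb and the strand setting of the counts is not given. In Junb methylphenidate replicate 2 stood alone at the top, as it did not for Fosl2, a late member of the FOS family (60.3, 50.2 and 43.6 against 67.8, 48.4 and 51.2 CPM), or for Jun as clearly (48.1, 63.3 and 59.8 against 57.9, 56.6 and 48.2 CPM). The log2 fold changes of these 5 genes ran from -0.24 for Fosb to 0.07 for Jun, and none passed the threshold.

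Among the EGR zinc finger factors, Egr1, which is induced by ERK signalling and used as a map of neuronal activity, had the largest difference. It had 206.6, 321.3 and 251.0 CPM in methylphenidate replicates 1 to 3, against 428.9, 270.0 and 456.0 CPM in saline replicates 1 to 3. Methylphenidate replicates 1 and 3 lay below every saline library and replicate 2 lay above saline replicate 2, so the groups overlapped (log2 fold change -0.57, SE 0.20; edgeR adjusted p = 0.569). Egr2 was high in the same 3 libraries, methylphenidate replicate 2 and saline replicates 1 and 3, with 12.9, 23.5 and 16.3 CPM in the methylphenidate lineage against 28.4, 11.3 and 27.4 CPM in the saline lineage (log2 fold change -0.34, SE 0.32). Egr3 had 171.1, 127.3 and 139.6 CPM against 197.7, 106.7 and 198.3 CPM (log2 fold change -0.20, SE 0.21), and here the low library of the methylphenidate lineage was replicate 2. Egr4 had 34.0, 51.6 and 43.5 CPM in the methylphenidate lineage against 47.8, 30.5 and 44.1 CPM in the saline lineage, with a log2 fold change of 0.08 (SE 0.18). In saline replicate 2 all 4 EGR genes had their lowest value of the saline lineage.

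The NR4A genes encode orphan nuclear receptors whose activity is set by their amount. Nr4a1 had 91.1, 139.6 and 92.1 CPM in the methylphenidate lineage against 121.1, 102.4 and 135.5 CPM in the saline lineage, and Nr4a3 had 24.6, 50.8 and 35.7 CPM against 51.9, 28.8 and 44.1 CPM. Both were high in methylphenidate replicate 2 and saline replicates 1 and 3, the 3 libraries in which Fos was high. Nr4a2 was also highest in methylphenidate replicate 2 (44.1, 61.7 and 42.6 CPM), but in the saline lineage it was high in replicate 1 and not in replicate 3 (57.3, 38.7 and 38.6 CPM). Npas4, a neuronal factor induced by calcium entry that regulates inhibitory synapses, had 17.4, 17.0 and 13.5 CPM against 22.6, 14.8 and 16.5 CPM. The log2 fold changes of these 4 genes lay between -0.17 and 0.14, each smaller than its SE.

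Klf4, a Krüppel-like factor known in blood vessel cells as well as an early gene, had 6.00, 10.5 and 6.55 CPM in methylphenidate replicates 1 to 3, against 15.1, 10.4 and 12.1 CPM in saline replicates 1 to 3. Only methylphenidate replicate 2 reached the saline range, and the log2 fold change of -0.70 (SE 0.23) was the lowest of the 35 genes (edgeR adjusted p = 0.555). Klf2, its relative, had 7.74, 10.7 and 8.19 CPM against 10.0, 10.3 and 9.68 CPM (log2 fold change -0.17, SE 0.16), and Klf6 had 48.1, 45.6 and 44.1 CPM against 50.3, 53.4 and 39.6 CPM (-0.06, SE 0.11). Endothelial markers, in which Klf2 and Klf4 could be expressed, summed to 425.2 to 513.6 CPM in the methylphenidate lineage and 471.1 to 515.8 CPM in the saline lineage, and 10 of 10 were tested with none past the threshold. Their part in the Klf4 values was not tested. Csrnp1, a nuclear factor first described as a target of Axin, had 9.52, 8.82 and 10.8 CPM in the methylphenidate lineage, all below the 11.2, 12.5 and 12.1 CPM of the saline lineage (log2 fold change -0.30, SE 0.14; edgeR adjusted p = 0.668). Maff, a small MAF factor with few reads, had 0.83, 1.86 and 1.61 CPM against 2.40, 0.82 and 0.87 CPM, and its SE of 0.50 was the largest of the 35.

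Among the effectors, Ier5 had the smallest adjusted p of all 35 genes. Ier5, whose product acts with protein phosphatase 2A on heat shock factor 1, had 66.9, 75.5 and 65.7 CPM in methylphenidate replicates 1 to 3, against 100.4, 87.0 and 112.2 CPM in saline replicates 1 to 3. Every methylphenidate library lay below every saline library, with 69.4 ± 5.3 CPM against 99.9 ± 12.6 CPM (SD, n = 3 each). The log2 fold change was -0.53 (SE 0.10; edgeR adjusted p = 0.192), so the difference did not pass the threshold over all genes. DESeq2 gave Ier5 an adjusted p of 0.000366 and called it lower, while the adjusted p lay between 0.173 and 0.595 in the other 14 alternatives, each with a log2 fold change below 0. Ier2 and Ier3, which share with Ier5 the name of immediate early response genes, overlapped between the lineages. Ier2 had 11.6, 17.5 and 9.26 CPM in the methylphenidate lineage against 10.8, 13.8 and 13.5 CPM in the saline lineage (log2 fold change 0.01, SE 0.22), and Ier3 had 6.79, 4.99 and 4.98 CPM against 6.13, 5.35 and 6.57 CPM (log2 fold change -0.11, SE 0.20).

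**Figure D2:**
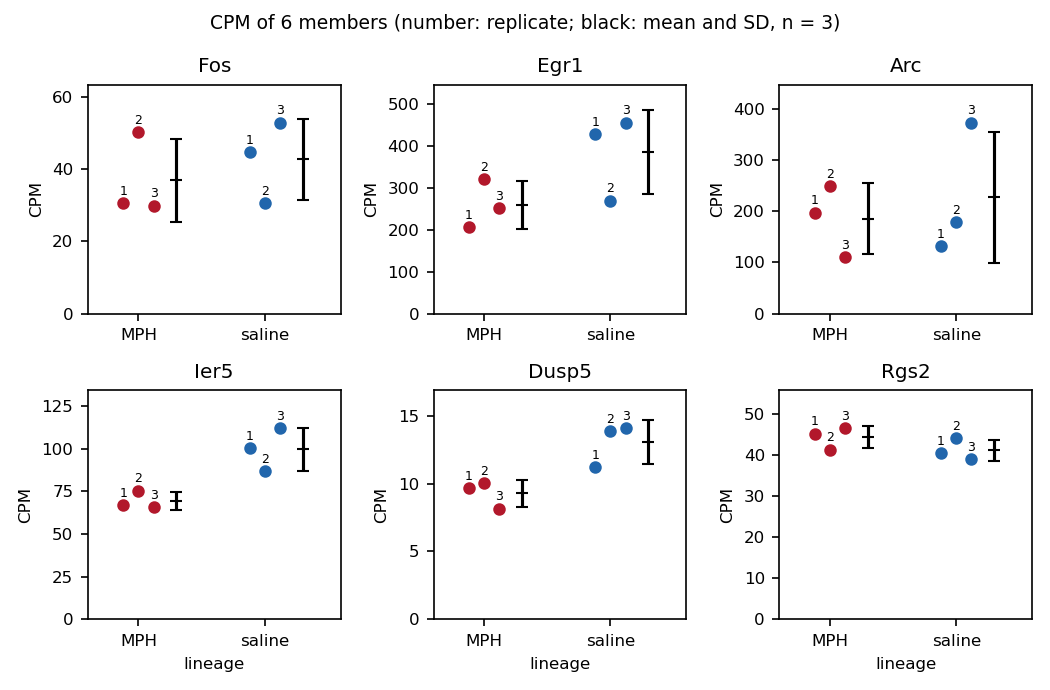
CPM of Fos, Egr1, Arc, Ier5, Dusp5 and Rgs2 in each library (red methylphenidate lineage left, blue saline lineage right, numbers are replicates), with the mean and SD of 3 libraries in black. Ier5 and Dusp5 do not overlap between the lineages, at 65.7 to 75.5 against 87.0 to 112.2 CPM for Ier5.

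Arc, a synaptic protein with a capsid-like fold that drives removal of AMPA receptors, varied most between libraries, by 3.38-fold from the lowest to the highest. It had 197.4, 249.4 and 110.7 CPM in the methylphenidate lineage against 131.2, 178.4 and 373.7 CPM in the saline lineage. Saline replicate 3 was the highest in both Arc and Fos, but saline replicate 1, high in Fos, was the second lowest in Arc (log2 fold change -0.29, SE 0.37; edgeR adjusted p = 0.902). Nptx2, a pentraxin that clusters AMPA receptors and is induced later than Arc, had 50.9, 37.6 and 39.5 CPM against 45.6, 46.1 and 48.5 CPM. Inhba, the subunit of activin A, had 18.1, 7.17 and 8.73 CPM against 13.3, 11.9 and 14.7 CPM. Both were highest in methylphenidate replicate 1, where Fos, Egr1 and Nr4a1 were among the lowest, and lowest in methylphenidate replicate 2.

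Ccn1, a secreted matrix protein induced through SRF, had 12.6, 22.9 and 21.7 CPM in the methylphenidate lineage against 31.9, 14.3 and 14.3 CPM in the saline lineage, highest like Maff in saline replicate 1 and then in methylphenidate replicates 2 and 3. Tiparp, a mono-ADP-ribosyltransferase, had 15.0, 25.1 and 14.8 CPM against 23.4, 17.9 and 28.6 CPM, the order of libraries seen in Fos. Sik1, a kinase that restrains CREB coactivators, had 10.3, 19.8 and 15.9 CPM against 17.5, 11.8 and 19.6 CPM, and Gadd45b, a stress gene linked to DNA demethylation in mouse neurons, had 10.4, 12.6 and 9.51 CPM against 10.7, 7.30 and 13.3 CPM. Rgs2, which shortens signalling through G proteins, ran the other way, with 45.3, 41.3 and 46.6 CPM against 40.4, 44.1 and 39.0 CPM, and varied only 1.19-fold. Btg2, an antiproliferative gene that also takes part in mRNA deadenylation, had the highest log2 fold change of the 35, 0.46 (SE 0.22; edgeR adjusted p = 0.675), from 28.9, 31.4 and 18.1 CPM in the methylphenidate lineage against 14.2, 22.3 and 20.4 CPM in the saline lineage. Pim1, a survival kinase, had 3.85, 2.35 and 2.26 CPM in the methylphenidate lineage against 5.56, 2.54 and 3.27 CPM in the saline lineage.

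The MAP kinase phosphatases were lower in value for 3 of 4 genes, and none passed the threshold. Dusp5, a nuclear phosphatase of ERK, had 9.69, 10.0 and 8.15 CPM in methylphenidate replicates 1 to 3, against 11.2, 13.9 and 14.1 CPM in saline replicates 1 to 3, without overlap (log2 fold change -0.49, SE 0.15; edgeR adjusted p = 0.495). Dusp4, also nuclear, had 4.89, 10.1 and 10.1 CPM against 13.3, 10.7 and 11.7 CPM, again without overlap but resting mainly on methylphenidate replicate 1 (log2 fold change -0.51, SE 0.25; -0.24 without that library). Dusp6, the cytoplasmic ERK phosphatase, had 54.0, 79.1 and 71.4 CPM against 92.1, 77.7 and 90.9 CPM (log2 fold change -0.35, SE 0.13; edgeR adjusted p = 0.602), and was -0.21 without methylphenidate replicate 1. Dusp1, which acts on p38 and JNK and holds the cyclic AMP response element shown above, had 38.7, 64.0 and 36.3 CPM against 34.5, 43.5 and 51.2 CPM (log2 fold change 0.11, SE 0.21), and shares a few exon bases with Ergic1 on the other strand. Dusp4, Dusp5 and Dusp6 thus had log2 fold changes of -0.35 to -0.51, and Dusp1 had a positive value.

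**Figure D3:**
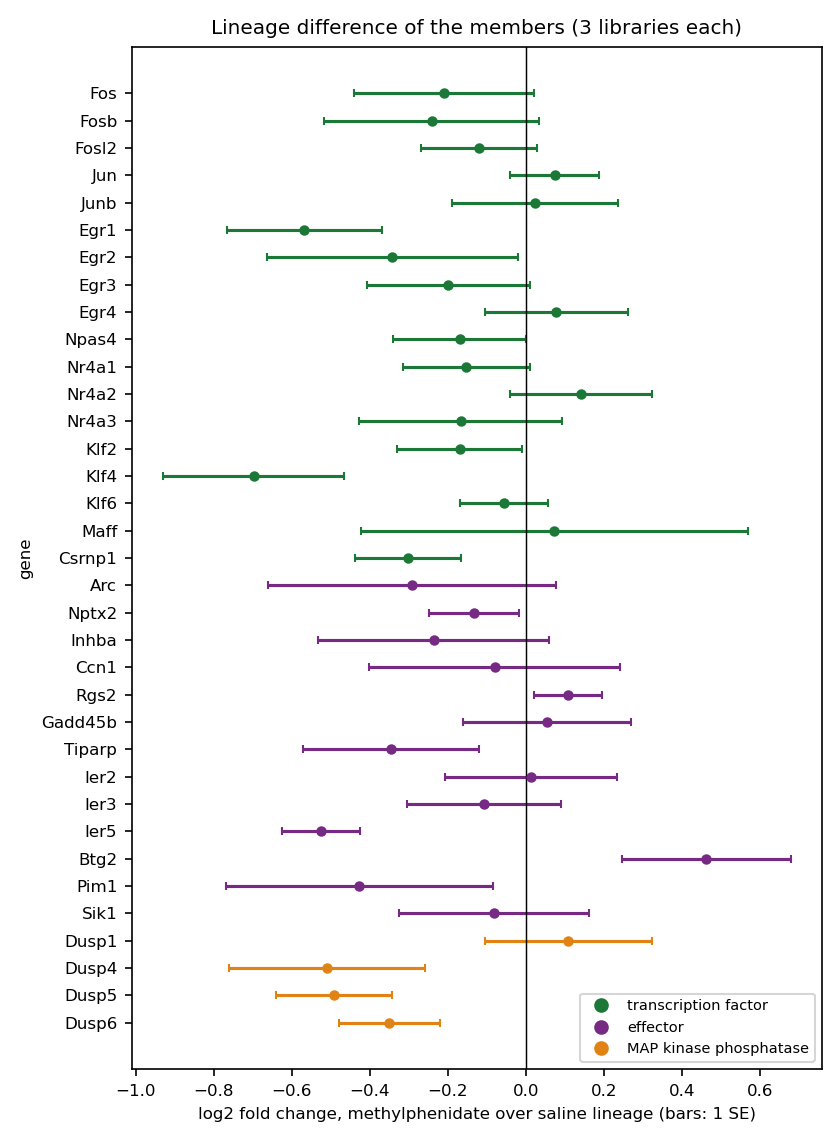
Log2 fold change (methylphenidate over saline lineage, 3 libraries each) of the 35 genes with 1 SE from the edgeR fit, coloured by role. Values run from -0.70 for Klf4 to 0.46 for Btg2, and 25 of the 35 lie below 0.

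Over the set as a whole, no gene passed an adjusted p of 0.05 in edgeR, where 0.0273% of all genes tested did (5 of 18327). The unadjusted p was under 0.05 in 5 genes (Egr1, Klf4, Ier5, Dusp5 and Dusp6), all lower in the methylphenidate lineage, or 14.3% of the 35, against 3.31% of all genes lower and 7.51% in either direction. Leaving out methylphenidate replicate 2 gave 10 genes at that level, all lower, saline replicate 2 gave 9 (8 lower and 1 higher) and methylphenidate replicate 3 gave 8 (7 lower and 1 higher), while leaving out saline replicate 3 gave 3 and saline replicate 1 gave 2, all lower. DESeq2 had 7 genes at that level (6 lower and 1 higher), limma-voom had 7 (all lower), and DESeq2 alone called 1, Ier5. Groups did not overlap in 4 genes (Csrnp1, Ier5, Dusp4 and Dusp5), all lower, or 11.4%, against 6.51% of all genes lower and 13.5% in either direction. For 21 of the 35 the log2 fold change was smaller than its own SE. The median log2 fold change was -0.17, with 25 genes below 0, against 0.00082 over all genes tested, of which 49.7% were below 0. With methylphenidate replicate 2 left out the median was -0.29, with saline replicate 2 left out -0.27, with methylphenidate replicate 3 left out -0.08 and with saline replicate 1 left out -0.06. Genes that vary together are not independent, so these counts are descriptions.

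By role, the median log2 fold change was -0.17 over 18 transcription factors, -0.11 over 13 effectors and -0.42 over 4 phosphatases. The transcription factors as a group had list means of -0.27, 0.19 and -0.15 for the methylphenidate lineage (replicates 1, 2 and 3) and 0.34, -0.22 and 0.11 for the saline lineage. The effectors had -0.0085, 0.071 and -0.25 in the methylphenidate lineage and 0.090, -0.12 and 0.22 in the saline lineage. The phosphatases had -0.46, 0.13 and -0.18 in the methylphenidate lineage and 0.10, 0.13 and 0.28 in the saline lineage. The phosphatases differed from the transcription factors in saline replicate 2, which was low for the factors and at the level of replicate 1 for the phosphatases.

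The transcription factors varied together across animals more than the effectors did. Over the 6 libraries, Pearson's r of log2 CPM had a median of 0.26 over the 595 pairs of the 35 genes, and 67.7% of pairs were above 0, against -0.001 and 49.9% over all 167930301 pairs of genes tested. The median was 0.43 over the 153 pairs of transcription factors, with 82.4% above 0, against 0.15 over the 78 pairs of effectors and 0.15 over the 234 pairs of an effector and a transcription factor. Pairs of a phosphatase and a transcription factor had a median of 0.33 (72 pairs). After the mean of each lineage was subtracted, the median was 0.25 over all 595 pairs and 0.49 over the pairs of transcription factors, so the covariation was present between animals of the same lineage. With 6 libraries that share depth, dissection and animal for all genes, these values are descriptions of this set of animals.

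**Figure D4:**
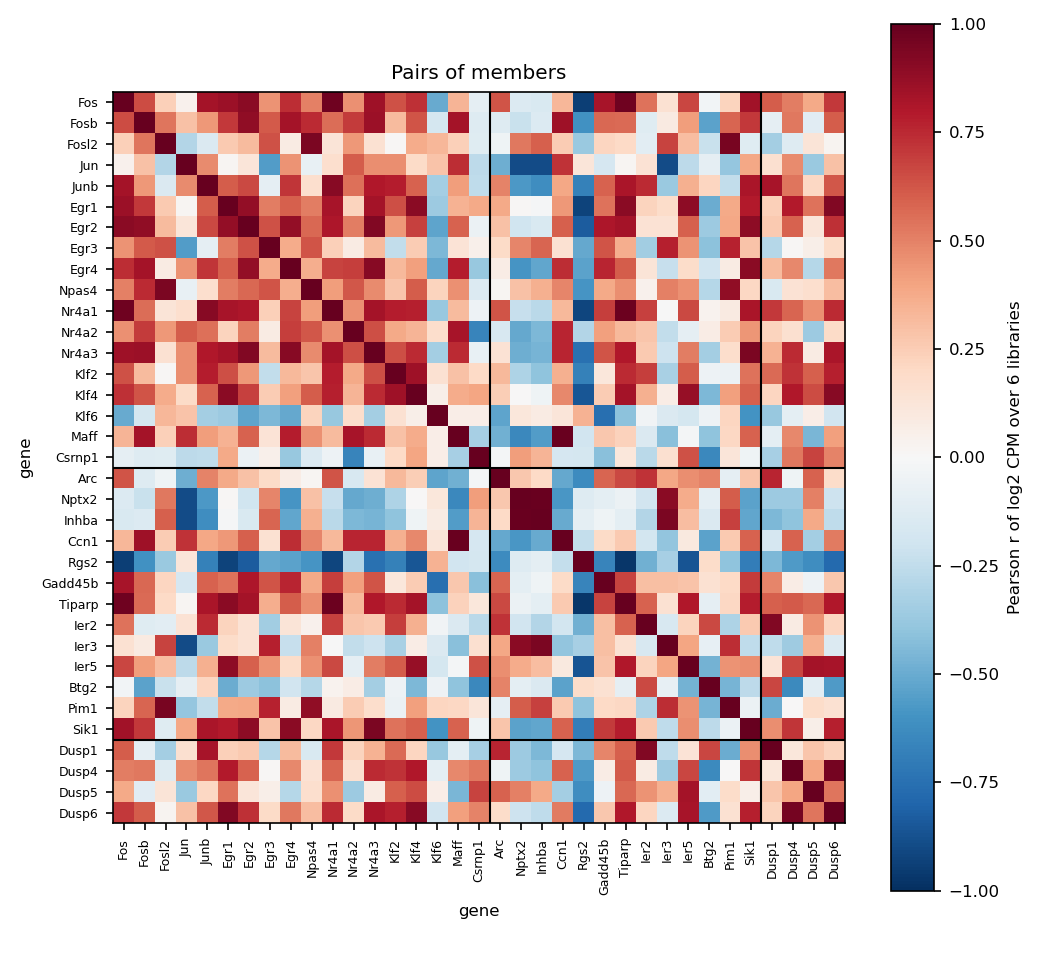
Pearson's r of log2 CPM over the 6 libraries for each pair of the 35 genes, ordered by role with black lines between roles (red positive, blue negative). The block of transcription factors is mostly red, with a median r of 0.43, and Rgs2 is blue against most of the others.

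Against Fos, 28 of the other 34 genes had a Pearson's r above 0, with a median of 0.53 (Spearman's rho 0.54), where the median over 18326 genes tested was -0.0002. Nr4a1 had r = 0.972 (exact permutation p = 0.0111) and rho = 0.886 (exact permutation p = 0.0333) over 6 libraries, and r = 0.927 without saline replicate 3 and methylphenidate replicate 2, the 2 libraries farthest from the median of Fos. Tiparp had r = 0.971 (exact permutation p = 0.00694) and rho = 1.00 (exact permutation p = 0.00278), and r = 0.927 without the same 2 libraries. Rgs2 had r = -0.942 (exact permutation p = 0.0292) and rho = -0.943 (exact permutation p = 0.0167), and r = -0.948 without them. None of these passed a two-sided test adjusted over the 18326 genes compared with Fos, where the smallest adjusted p was 0.998 by Pearson's r. With 720 orders of the 6 libraries, the exact permutation p could not go below 0.00139. The adjusted test could therefore hardly be passed, and its outcome does not show that a relation is absent. Of all genes, 0.567% had r above 0.9.

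Other members related to Fos less closely. Egr1 and Egr2 had r of 0.857 and 0.899 (exact permutation p = 0.0514 and 0.0667; rho 0.886 and 0.600, exact permutation p = 0.0333 and 0.242), and 0.926 and 0.905 without the 2 farthest libraries. Arc, the classic effector, had r = 0.631 (exact permutation p = 0.203) and rho = 0.771 (exact permutation p = 0.103), and r = -0.287 without those 2 libraries, so that its relation with Fos rested on them. Dusp1 likewise had r = 0.607 (exact permutation p = 0.193) and rho = 0.600 (exact permutation p = 0.242), and r = -0.629 without them. Npas4 had r = 0.501 (exact permutation p = 0.325) and rho = 0.314 (exact permutation p = 0.564), and 0.903 without them. Jun, Nptx2, Inhba, Ier3 and Btg2 had r between -0.149 and 0.153 with Fos. The adjusted p of every one of the 34 genes was at least 0.77 by either measure.

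The spread between animals of one lineage was above that of most genes for 29 of the 35. The SD of log2 CPM within lineages had a median of 0.36 over the 35 genes, against 0.18 over all genes tested, and the median member stood at the 75.7th percentile. By the edgeR dispersion, which allows for counting error, the median member stood at the 61.1st percentile, and 27 of 35 were above the middle. Maff (0.71), Arc (0.69) and Egr2 (0.61) had the largest SD and lay above the 90th percentile, while Rgs2 (0.090, 19.6th percentile) and Csrnp1 (0.12, 31.6th percentile) had the smallest. From the lowest to the highest library, the 35 genes varied by 1.19-fold to 3.38-fold, with a median of 1.86-fold, against 1.41-fold over all genes tested.

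Genes around the pathway were read from lists chosen for this purpose. Of 28 other early response genes, 27 were tested and none passed the threshold, with a median log2 fold change of -0.14 and 21 of 27 below 0. Their summed level was 1628 to 1781 CPM in the methylphenidate lineage, below the 1913 to 2015 CPM of the saline lineage. A sum is set mainly by the abundant genes, while a list mean weights each gene alike. The list means overlapped, at -0.21, 0.024 and -0.025 in methylphenidate replicates 1, 2 and 3 against 0.13, -0.074 and 0.16 in saline replicates 1, 2 and 3. Bhlhe40, a repressor of the clock that is induced by activity, had 68.8, 118.4 and 92.9 CPM in the methylphenidate lineage, all below the 138.0, 123.0 and 142.5 CPM of the saline lineage (log2 fold change -0.53, SE 0.16; edgeR adjusted p = 0.497), and DESeq2 called it. Spry2, an inhibitor of receptor tyrosine kinase signalling, had 41.8 to 44.0 CPM against 50.1 to 51.5 CPM (log2 fold change -0.24, SE 0.07), and Plk3 had a log2 fold change of -0.52 (SE 0.22). Gadd45g, a relative of Gadd45b, had 8.11 to 11.4 CPM against 6.01 to 7.53 CPM (log2 fold change 0.47, SE 0.18; edgeR adjusted p = 0.606). Fosl1 had under 4 counts in every library and was not tested.

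Later activity-regulated genes, which include the neurotrophin Bdnf and the secretory genes Vgf and Scg2, had -0.04 as their median log2 fold change in 24 tested of 25, none of them past the threshold. The smallest p were those of Spred1 (-0.26, SE 0.08), Syt4 (-0.25, SE 0.08), Nrn1 (-0.24, SE 0.09) and Nptx1 (-0.20, SE 0.08), each with an edgeR adjusted p of at least 0.504. Groups did not overlap in 4 of the 24, all lower, where 6.51% of all genes tested were lower without overlap and 13.5% did not overlap in either direction. The summed level of the list was 4190 to 4598 CPM in the methylphenidate lineage, below the 4669 to 4796 CPM of the saline lineage. The list means did overlap, at 0.038, 0.050 and -0.074 in methylphenidate replicates 1, 2 and 3 against -0.0073, -0.015 and 0.0074 in saline replicates 1, 2 and 3. The lower sum is thus a trait of the abundant genes and not of the list as a whole. Of 32 upstream kinases and transcription factors, all were tested and none passed, with a median of 0.02. Mapk3, which encodes ERK1, had a log2 fold change of 0.35 (SE 0.11), while Mef2c, Ppp3ca, the catalytic subunit of calcineurin, and the SRF coactivator Mrtfb had -0.25 (SE 0.10), -0.16 (SE 0.06) and -0.16 (SE 0.06). The 6 other MAP kinase phosphatases had a median of -0.09 (6 tested, none past the threshold). Glucocorticoid-induced genes had a median of -0.04 over 14 tested genes and heat shock genes one of -0.07 over 10, again with none past the threshold. The summed level of the heat shock genes was 2016 to 2304 CPM in the methylphenidate lineage, below the 2312 to 2441 CPM of the saline lineage. Their list means overlapped, at -0.014, -0.023 and -0.043 in methylphenidate replicates 1, 2 and 3 against 0.15, 0.033 and -0.10 in saline replicates 1, 2 and 3.

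Markers of other cells moved with some of these values. The 11 tested of 12 striatal markers all had log2 fold changes above 0 (median 1.17, none past the edgeR threshold), and their list means were 0.92, -0.08 and 1.33 in methylphenidate replicates 1, 2 and 3 against -0.17, -0.92 and -1.08 in saline replicates 1, 2 and 3. Pde10a, a phosphodiesterase of striatal neurons, had the smallest p of them (log2 fold change 1.17, SE 0.24; edgeR adjusted p = 0.220). Methylphenidate replicate 2, the library of that lineage with high Fos, Egr1 and Klf4, had the lowest striatal markers of that lineage. In the saline lineage the 2 libraries with high Fos were at opposite ends, replicate 1 with the highest striatal markers and replicate 3 with the lowest. The 10 excitatory markers had a median log2 fold change of -0.22, 8 of them below 0, with list means of -0.14, 0.03 and -0.21 in methylphenidate replicates 1, 2 and 3, below the 0.07, 0.16 and 0.09 of saline replicates 1, 2 and 3. The 11 mural and meningeal markers had a median of -0.19, 8 of them below 0, and list means of -0.21, 0.11 and -0.09 in the methylphenidate lineage and 0.20, -0.02 and 0.01 in the saline lineage, with summed levels of 235.6 to 268.7 CPM and 247.8 to 290.3 CPM. In the methylphenidate lineage this is the order of the transcription factor means, but the inhibitory neuron and glucocorticoid-induced list means had that order too. In the saline lineage replicate 1 was highest and replicate 2 lowest in both the mural and the transcription factor means. The same held for the oligodendrocyte lineage, astrocyte and blood cell list means. The mural means of saline replicates 2 and 3 were nearly equal. No marker of these lists was at 0. The part of striatal, excitatory or vascular cells in the values of the 35 genes was not tested.

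**Figure D5:**
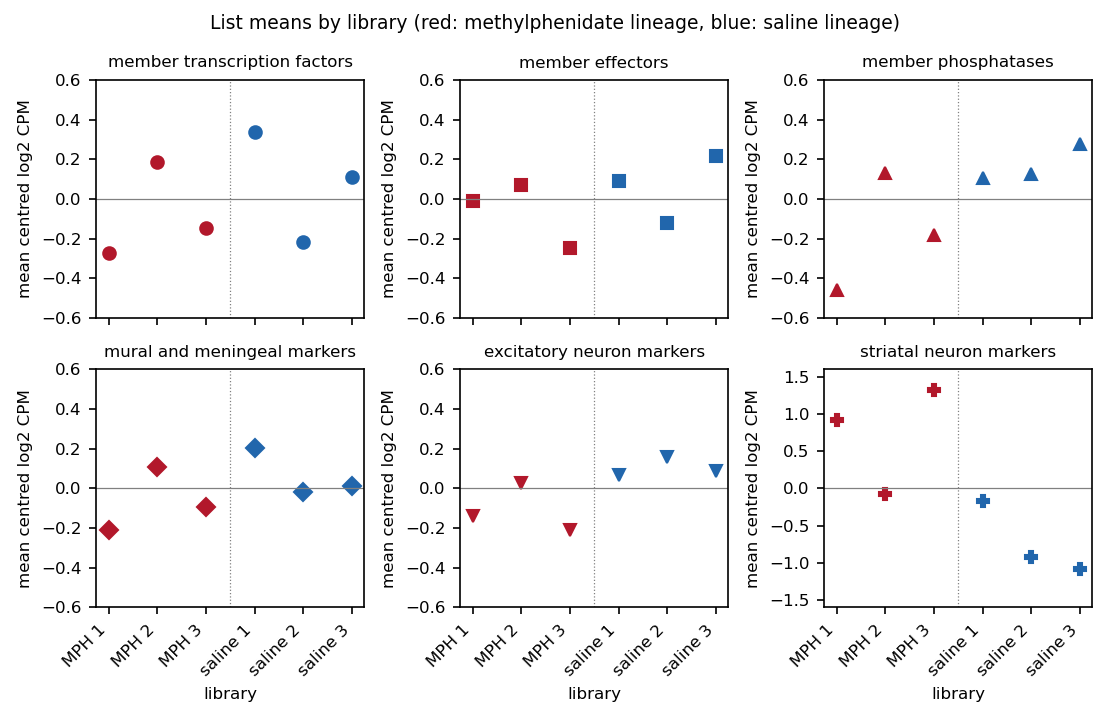
Mean of log2 CPM centred on each gene's mean over 6 libraries, by library, for the 3 roles of the set and for mural and meningeal, excitatory and striatal markers (red methylphenidate lineage, blue saline lineage; the striatal panel has a wider axis). The transcription factors lie at -0.27, 0.19 and -0.15 against 0.34, -0.22 and 0.11, and the mural and meningeal markers at -0.21, 0.11 and -0.09 against 0.20, -0.02 and 0.01.

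Among the other cell lists, inhibitory neuron, hippocampal, endothelial, microglial, astrocyte and oligodendrocyte lineage markers had median log2 fold changes of 0.05, 0.0023, -0.02, 0.07, 0.14 and 0.03 over 8 to 10 tested genes each, with none past the threshold. The hippocampal markers nevertheless summed to 302.3 to 332.1 CPM in the methylphenidate lineage, above the 244.1 to 279.0 CPM of the saline lineage. Among them Wfs1 (log2 fold change 0.60, SE 0.12; edgeR adjusted p = 0.192) and Zbtb20 (0.36, SE 0.09; edgeR adjusted p = 0.307) had every methylphenidate library above every saline library. Of the 10 hippocampal markers, 6 were above 0 and 4 below, and 1 was lower without overlap. Over all genes tested, 13.5% did not overlap in either direction. The hippocampal list means overlapped, at 0.057, 0.16 and -0.19 in methylphenidate replicates 1, 2 and 3 against -0.11, 0.19 and -0.10 in saline replicates 1, 2 and 3. The part of hippocampal tissue in the values of the 35 genes was not tested. Choroid plexus markers summed to 500.3, 201.7 and 21.2 CPM for the methylphenidate lineage (replicates 1, 2 and 3) and 41.3, 654.0 and 420.3 CPM for the saline lineage, the 6 genes having -0.70 as their median log2 fold change and none passing the threshold. The part of choroid plexus tissue in the values of the 35 genes was not tested. Blood cell markers summed to 145.4 to 255.3 CPM in the methylphenidate lineage and 134.0 to 305.0 CPM in the saline lineage, and mitochondrial transcripts took 6.44 to 8.19% of counts in the methylphenidate lineage and 6.64 to 7.80% in the saline lineage.

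The genes outside the set whose log2 CPM, with the lineage mean subtracted, ran closest to the mean of the 18 transcription factors were Lrrc75b (r = 0.998), 9530082P21Rik (0.996), Rsbn1l (0.994), Rpl10a (0.992), Slc38a2 (0.992), Fam98b (0.989), Tgs1 (0.989), St3gal6 (0.989), Cenpv (0.986) and Slc13a5 (0.984). They were the top of 12139 genes with a mean of at least 5 CPM, of which 77 reached 0.95 over the 6 libraries. With so few libraries a high r over many genes carries little weight, and no test was made.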

How the data were processed

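The authors deposited whole-number read counts per Ensembl gene, 1 column per library, not normalized and with gene symbols in the same table. Per the labels' protocols, poly(A) RNA was made into directional libraries. Per the submitters' processing notes, the tools were StringTie 2.2.1, HISAT2 2.2.1, fastp 0.23.4 and bcl2fastq 2.19 and the build was GRCm39; the sources used here give no order of the tools, annotation or strand setting. Of the rows, 985 had no symbol (0.131 to 0.175% of counts). In GENCODE M21 (GRCm38, used only for neighbours), exons of 7 members overlap a gene on the other strand. Junb overlaps Prdx2 and Dusp1 overlaps Ergic1, both expressed, so reads of these pairs could be mixed.

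Tests used edgeR 4.0.16 in R 4.3.3 (filterByExpr, TMM, glmQLFit and glmQLFTest, group as the only term, two-sided, Benjamini-Hochberg over 18327 genes, threshold 0.05). Log2 fold changes are methylphenidate over saline, and each SE is the size of that change over the root of its F statistic. CPM used TMM-scaled library sizes. Log2 CPM had a prior count of 2. Correlations with Fos used every order of the 6 libraries. A count of 0 allows up to 3 counts, 0.107 to 0.126 CPM, for counting error only. The chi-square per degree of freedom between libraries of a lineage was 14.1 to 21.8, above the 1 that sampling noise gives, so none was a duplicate. The labels do not tie samples to separate litters, so p-values measure the spread between these samples. The method was tested on simulated data. As alternatives, scaling was by RLE, by the upper quartile or by totals, with 2 filters, each library left out, a replicate block, DESeq2 1.42.0, limma-voom (limma 3.58.1), library sizes without mitochondrial genes, and, for correlations, a prior count of 0.5 and Spearman's rho.

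The members and lists were chosen with earlier results of these data known. The rule for named genes took all 35 members, up to 4 genes of smallest p in each list around them, and the 10 genes closest to the transcription factor mean. Genes of the endothelial, inhibitory, glial, choroid plexus, blood, glucocorticoid, heat shock and other phosphatase lists that the rule takes are given only as list values, and those of the excitatory, striatal, hippocampal and mural lists in part; 1 gene is not reported here.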

Additional observations from a re-analysis of the deposited data

How the results depend on the processing

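Under the 15 alternatives run on each gene, 18 of the 35 genes kept the sign of their log2 fold change and 17 did not, all of them genes with no call. When each library was left out in turn, the log2 fold change ran from -0.51 to 0.15 for Fosb, -0.25 to 0.044 for Fosl2, -0.0088 to 0.18 for Jun, -0.33 to 0.21 for Junb, -0.093 to 0.22 for Egr4, -0.29 to 0.028 for Npas4, -0.050 to 0.36 for Nr4a2, -0.47 to 0.055 for Nr4a3, -0.17 to 0.032 for Klf6, -0.19 to 0.76 for Maff, -0.57 to 0.26 for Arc, -0.75 to 0.0098 for Inhba, -0.28 to 0.42 for Ccn1, -0.15 to 0.26 for Gadd45b, -0.29 to 0.20 for Ier2, -0.31 to 0.14 for Sik1 and -0.20 to 0.26 for Dusp1. With the replicate block the value was -0.037 for Junb and -0.026 for Ier2, and with limma-voom -0.024 for Junb and -0.0059 for Ier2, while it was 0.02 and 0.01 in edgeR without a block. The causes were not tested.

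No member passed the threshold under any setting other than DESeq2, which called 1, Ier5. Over all genes the count past the threshold was 5 in edgeR, 10 with total counts, 3 with no filter, 2 with the replicate block, 151 with DESeq2 and 2 to 26 with a library left out. The same-numbered libraries of the lineages share only a number: the correlation of their deviations was -0.044, 0.091 and -0.024 over all genes. The median pairwise correlation of the 35 genes ran from 0.202 to 0.316 with a library left out, and from 0.170 to 0.366 with the lineage mean subtracted. DESeq2 also called Bhlhe40, Drd1 and Six3 among the genes named from other lists, which edgeR did not call. With 3 libraries a lineage, the median SE of a member's log2 fold change was 0.21, against 0.15 over all genes tested, so differences of the size seen in most members are within the error of this design.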
